A study of Homo sapiens and Rattus norvegicus with 26 samples.

Results

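The cyclins, the cyclin-dependent kinases (CDKs), the E2F factors and the inhibitors that hold them back were followed in 4 endothelial or endothelial-like culture models under high and low shear stress. The group held 46 genes, taken by symbol from the count table of each model, and all 46 were found among the 43382 genes of the human tables and the 33289 genes of the rat table (rat symbols in upper case). RNA sequencing covered 26 cultures. Each human model had 3 cultures under high and 3 under low shear, and the rat model had 4 of each. hECs were endothelial cells without CNS-like specification, derived from the human iPSC line IMR90-4. hCECs were derived from the same line with activation of Wnt signaling by the GSK3 inhibitor CHIR99021, which stayed in their medium on the chip, and hBMEC-like cells came from the same line by another protocol. rBMECs were primary brain microvascular cells of male Sprague-Dawley rats, selected with puromycin, with part of a brain on each chip and brains pooled where needed. High shear was 12 dyne/cm2 and low shear 0.1 dyne/cm2 in the series' design text, while the methods of the study give a low value several times higher, and shear lasted 72 h. Medium differed between models: VEGF and FGF2 were present for hECs and hCECs, no growth factor was added to hBMEC-like cells during shear, and rBMECs were in serum with FGF2 and heparin. Each human replicate was its own differentiation of that iPSC line, so the human tests cover the spread between cultures and not between donors. The rat replicates were described as isolations from replicate rats, but a legend of the study counts 1 isolation fewer than the 4 labelled replicates, so some rat replicates may share an isolation and p-values over them may then be too small.

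A cell enters the cycle when D-type cyclins with CDK4 and CDK6, and then E-type cyclins with CDK2, phosphorylate RB1 and its relatives RBL1 and RBL2. This frees E2F factors, which switch on genes of DNA replication, while cyclin A, the B-type cyclins and CDK1 carry the cell through S phase, G2 and mitosis. Inhibitors of the INK4 family bind CDK4 and CDK6, inhibitors of the Cip/Kip family act on several cyclin-CDK complexes, and p53 raises arrest genes such as CDKN1A. Laminar flow is known for holding mature endothelial cells in G1, and Wnt signaling and growth factors are known to raise CCND1 and MYC.

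Library totals were 25269733 to 47006272 counts in hECs, 9790999 to 32225360 in hCECs, 26297516 to 38604498 in hBMEC-like cells and 25727387 to 38166280 in rBMECs. The hCEC low-shear library of replicate 2 stood apart, with 9790999 counts and 36388 genes with at least 1 count, against 26834595 to 32225360 counts and 20072 to 20519 genes in the other hCEC libraries. Genes near 0 in the other hCEC libraries had low values in it across cell types. Among them were CDH1 (epithelial, 7.95 CPM), RBFOX3 (neuronal, 14.5 CPM) and PDGFRB (mesenchymal, 13.5 CPM). Its 10 epithelial markers summed to 104 CPM, against 93.7 to 97.3 CPM in the other low-shear hCEC libraries. Values without replicate 2 therefore stand beside the hCEC results. CPM are counts scaled to 1e+06 per library after TMM normalization, which scales libraries for composition, over the 18 human libraries or over the 8 rat libraries, so levels of rat and human are not compared. The defining endothelial markers were low or absent in hBMEC-like cells. A list of 10 pan-endothelial markers summed to 69.4 to 78.2 CPM under high shear and 76.4 to 90.4 CPM under low shear in hBMEC-like cells, against 12600 to 14700 and 15400 to 17100 CPM in hECs, and PECAM1 was at 0.209 CPM or less. The 10 epithelial markers reached 9700 to 11200 CPM under high shear and 8790 to 10300 CPM under low shear in hBMEC-like cells.

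**Figure D1:**
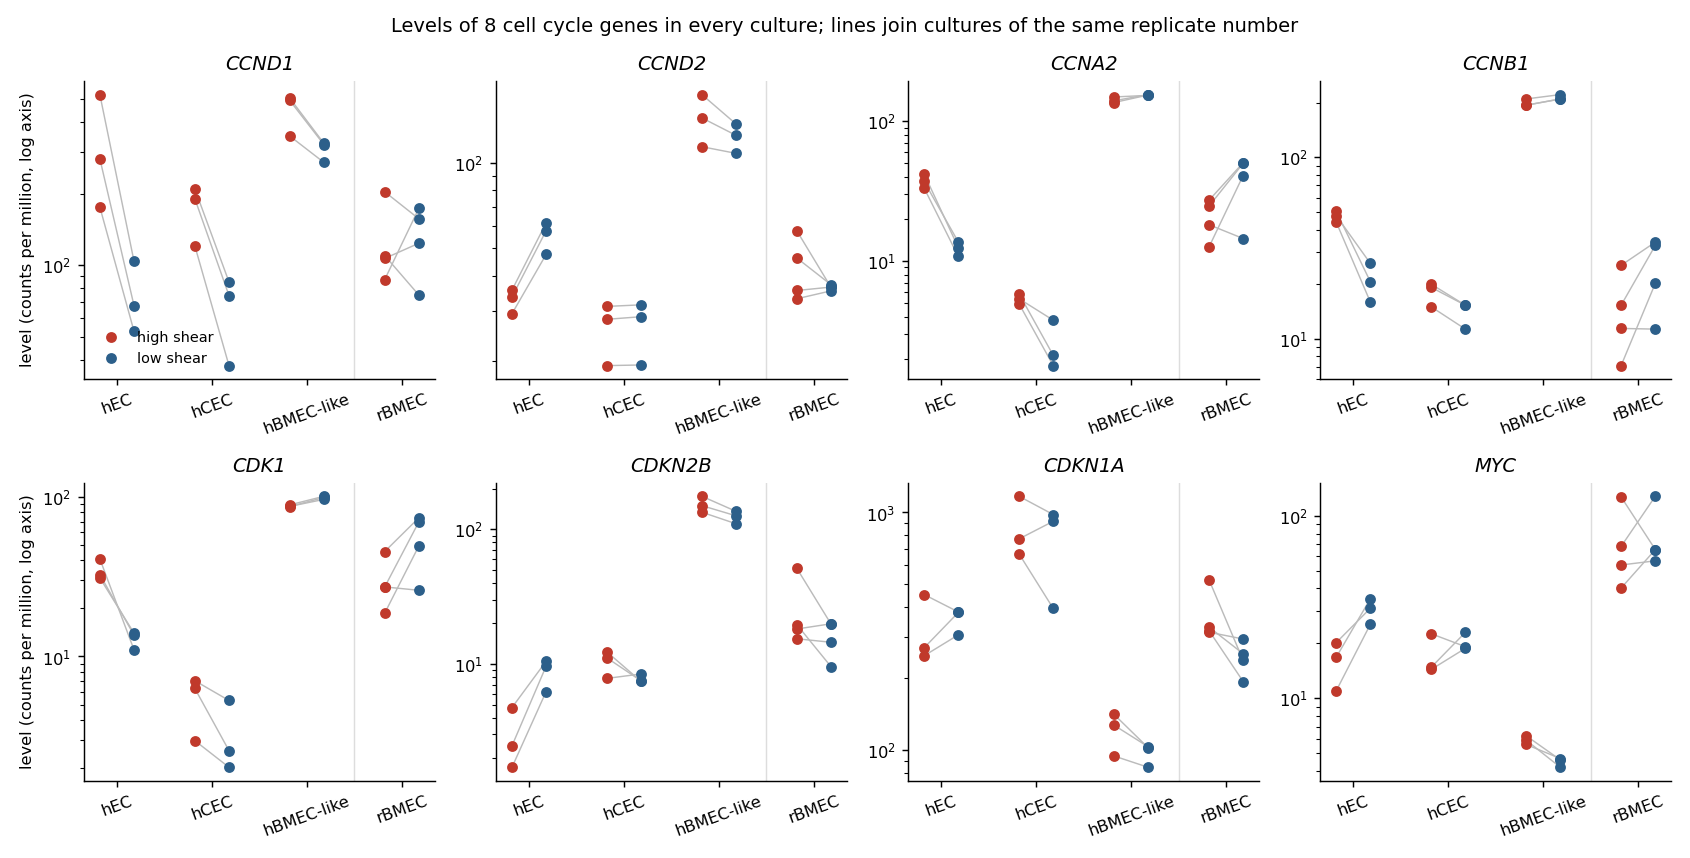
Levels of CCND1, CCND2, CCNA2, CCNB1, CDK1, CDKN2B, CDKN1A and MYC in every culture, as CPM on a log axis. Each point is a library, high shear stands left of low shear in each model, and lines join cultures of a replicate number. CCND1 lay at 176 to 523 CPM in high-shear hECs and at 52.8 to 104 CPM in low-shear hECs, with no overlap, while in rBMECs the groups overlapped.

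In hECs, high shear was accompanied by higher levels of the mitotic cyclins, CDK1, E2F1, E2F2 and CCND1, and by lower levels of CCND2, CDKN2B, MYC and GADD45A. A gene was called, or passed, at an adjusted p under 0.05 from edgeR, and adjusted p-values and standard errors (SE) below are from that tool unless DESeq2 is named. Of the 45 members tested in hECs, 13 were higher (28.9%) and 5 lower (11.1%), against 7.87% and 8.23% of the 15488 genes tested. In hBMEC-like cells 5 of 45 members were higher (11.1%) and 8 lower (17.8%), against 8.2% and 6.77% of all genes, with small changes between -0.34 and 0.53 on the log2 scale. In hCECs, CCND1 and CCND3 were called higher, 2 of 43 members (4.65%) against 2.04% of all genes. The CCND3 call was lost in most other settings, DESeq2 among them. No hCEC member was called lower by edgeR (background 1.2%, 2 at an unadjusted p under 0.05, 0 by DESeq2). In rBMECs none of 44 members was called by edgeR, where 0.088% of all genes were called higher and 0.0366% lower. At an unadjusted p under 0.05, 2 rBMEC members were higher and 10 lower, against 4.01% and 5.37% of all genes. DESeq2 called 1 rBMEC member higher, GADD45G, and 3 lower, CDK1, CCNF and CDKN3, against 1.27% and 0.769% of all genes. Over the members the median log2 fold change was 0.19 in hECs (0.0 over all genes), 0.05 in hCECs (-0.02), -0.05 in hBMEC-like cells (0.0) and -0.18 in rBMECs (-0.01). CDK7 did not reach the filter on low counts in the human models, nor did CDK18 and E2F2 in hCECs or CDK18 and CDKN2A in rBMECs. Of the 46 genes, 24 passed in at least 1 model, and the other 22 were CCNE1, CCNE2, CCNG1, CDK7, CDK18, CDKN1C, CDKN2A, CDKN2C, CDKN2D, E2F3, E2F4, E2F5, E2F7, E2F8, TFDP1, RB1, RBL2, BTG1, BTG2, GADD45B, GADD45G and MDM2. In both hECs and hBMEC-like cells 7 members were called. Of these, 6 went in opposite directions (CCNA2, CCNB2, CCND2, CDK1, CDKN2B and E2F1) and only CCND1 in the same direction. The same counts were not made over all genes. Neither these directions nor the 24 genes called in at least 1 model therefore have a background to stand against. The shared rise of CCND1 was known when the genes were chosen.

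**Figure D2:**
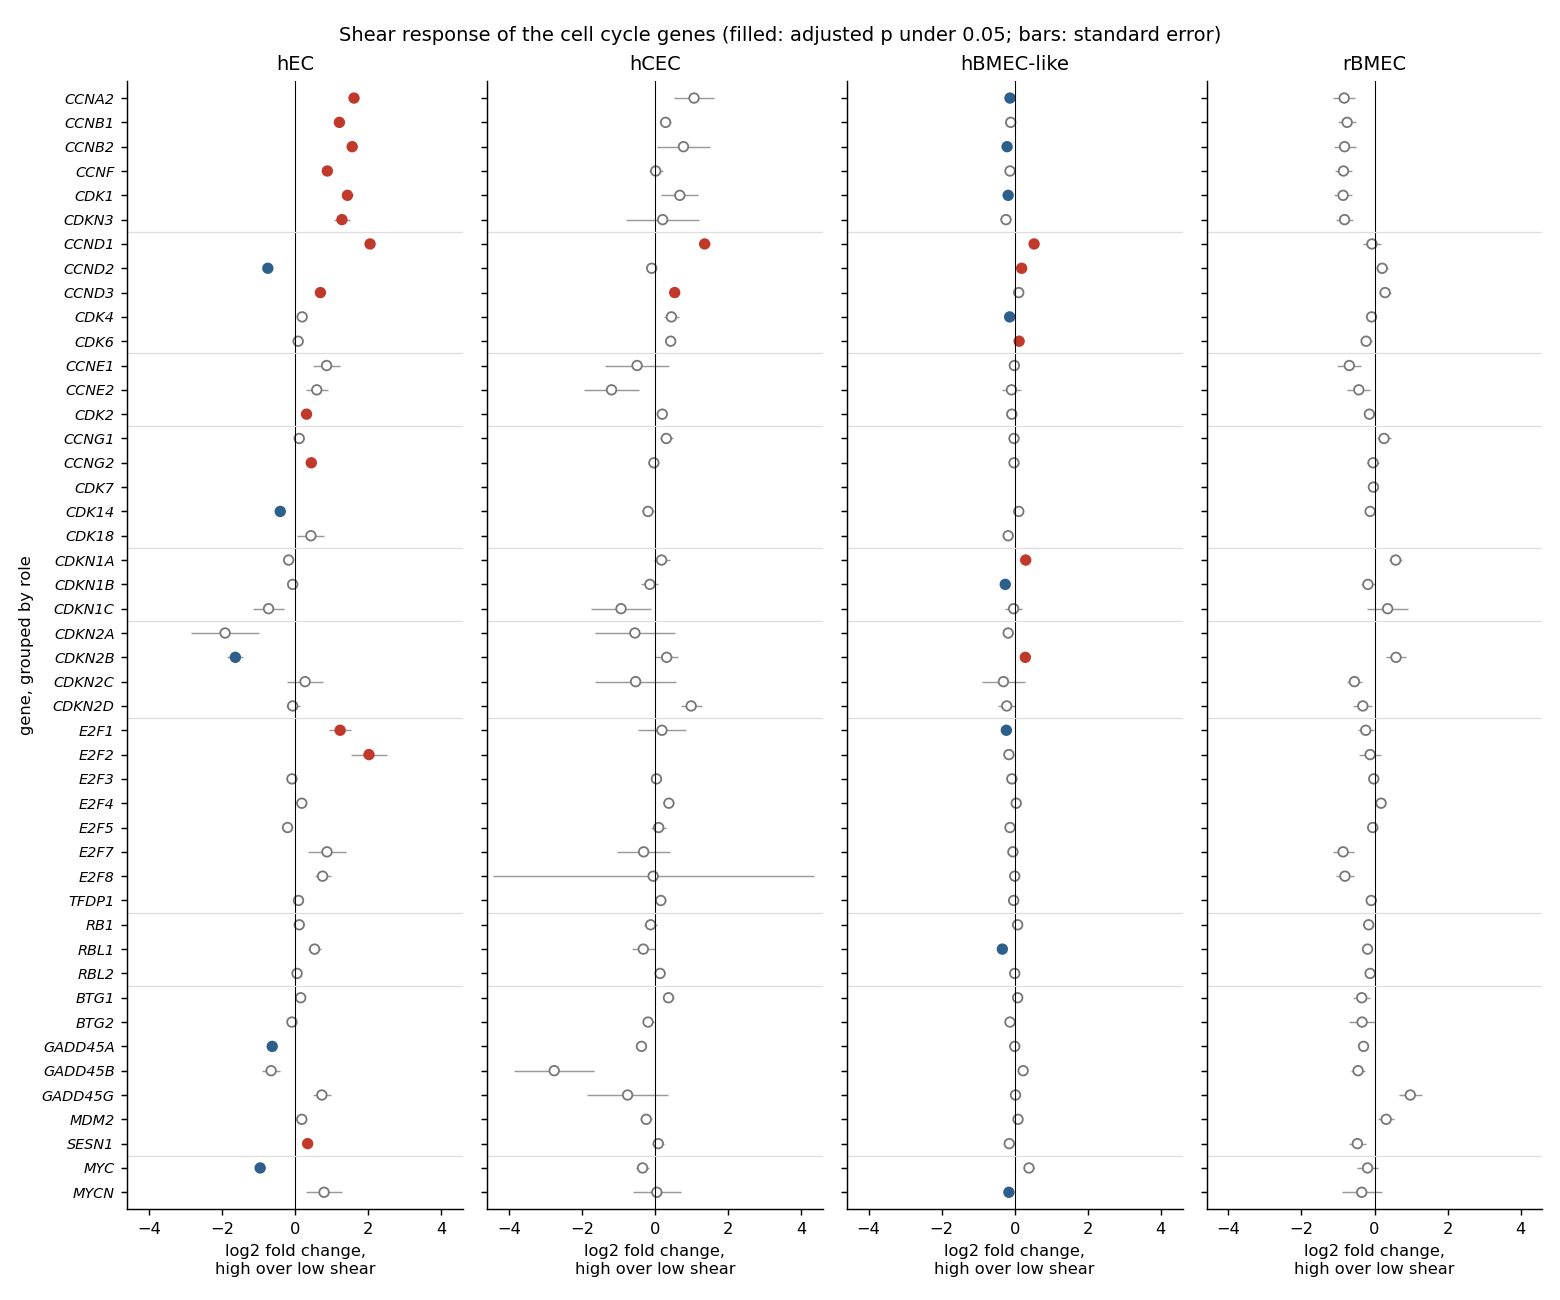
Log2 fold change of high over low shear for the members in each model, with 1 standard error, filled where called. In hECs the fold changes ran to 2.05 for CCND1, and in hBMEC-like cells none exceeded 0.53.

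In bulk RNA, fewer cells of a kind and less RNA per cell cannot be told apart, which holds for every change below. Markers of other cell types moved with shear in hECs: 10 smooth muscle and mesenchymal markers summed to 216 to 1080 CPM under high shear and 603 to 2240 CPM under low shear, and 7 of the 8 tested fell. Without replicate 1 only 1 of the 8 was called lower, and without replicate 3 there were 5. A list of 6 pluripotency markers summed to 47.9 to 65.5 CPM in high-shear hECs and 25.5 to 36.5 CPM in low-shear hECs. These markers did not move together: of 5 tested, 2 were called higher and 1 lower. SALL4 was at 18.2 to 20.6 CPM under high shear and 7.49 to 10.4 CPM under low shear. LIN28A was at 0.0758 to 0.244 CPM and 0.332 to 1.46 CPM. The 10 epithelial markers summed to 105 to 177 CPM in high-shear hECs and 174 to 359 CPM in low-shear hECs, with 2 of 5 tested called lower. In hBMEC-like cells the smooth muscle and mesenchymal markers summed to 7490 to 8180 CPM under high shear and 6690 to 7060 CPM under low shear, with 5 of 8 tested higher and 1 lower. The pluripotency markers summed to 552 to 631 CPM under high shear and 669 to 683 CPM under low shear, with 1 of 4 tested called lower. Most of that sum was LIN28A, at 402 to 469 CPM under high shear and 514 to 530 CPM under low shear. SALL4 was at 98.8 to 112 CPM and 98.6 to 110 CPM. The high-shear rBMEC library of replicate 1 summed to 9680 CPM of pan-endothelial markers, against up to 19500 CPM in the other high-shear rBMEC libraries, and both replicate 1 libraries of rBMECs were high in smooth muscle and mesenchymal markers (907 CPM under high shear and 820 CPM under low shear, against 200 to 329 CPM in the others). In hCECs the shallow low-shear library had 10100 CPM of pan-endothelial markers, against 16400 to 16600 CPM in the other low-shear libraries, and 2 of the 6 smooth muscle and mesenchymal markers tested were lower under high shear. The part of these cells in the results was not tested.

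CCND1, the D-type cyclin that growth factors and Wnt signaling induce, was higher under high shear in the 3 human models. This rise was known when the genes were chosen and is given as a description. In hECs, CCND1 was at 281, 176 and 523 CPM under high shear in replicates 1 to 3, against 67.7, 52.8 and 104 CPM under low shear. Every high-shear culture lay above every low-shear culture, and the fold was 4.13 (log2 2.05, SE 0.12, adjusted p = 0.00014). In hCECs it was at 191, 121 and 210 CPM under high shear and 74.7, 37.9 and 85.2 CPM under low shear (log2 1.36, SE 0.14, adjusted p = 0.0013, and 1.33 without replicate 2). In hBMEC-like cells it was at 505, 494 and 350 CPM under high shear and 326, 322 and 271 CPM under low shear (log2 0.53, SE 0.045, adjusted p = 9.6e-09). The human groups did not overlap in any of the models. Rat Ccnd1 was at 204, 110, 107 and 87.2 CPM in high-shear rBMECs, against 157, 75.0, 124 and 174 CPM in low-shear rBMECs. These overlapped, with 2 pairs higher and 2 lower (log2 -0.07, SE 0.25, adjusted p = 0.98), and without replicate 4 the value was 0.25.

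CCND2, a D-type cyclin with the same kinase partners, moved the other way in hECs. It was at 35.6, 33.7 and 29.4 CPM under high shear and 61.5, 57.7 and 47.6 CPM under low shear in hECs (log2 -0.75, SE 0.074, adjusted p = 0.00088). In hBMEC-like cells it rose slightly, at 174, 144 and 114 CPM under high shear and 137, 125 and 108 CPM under low shear (log2 0.19, SE 0.048, adjusted p = 0.0063), a call lost without replicate 1. Each hBMEC-like pair was higher under high shear, although the groups overlapped. CCND2 did not pass in hCECs (-0.09, adjusted p = 0.78) or rBMECs (0.21, adjusted p = 0.78). CCND3, the third D-type cyclin, was at 60.4, 69.9 and 75.5 CPM under high shear in hECs and 39.8, 46.7 and 41.3 CPM under low shear (log2 0.69, SE 0.085, adjusted p = 0.002). In hCECs CCND3 was at 40.2, 34.9 and 48.8 CPM under high shear and 30.1, 19.3 and 32.3 CPM under low shear (log2 0.54, SE 0.12, adjusted p = 0.049, and adjusted p = 0.007 without replicate 2). Its call in hCECs was lost without replicate 1 or replicate 3 and by DESeq2. It was also lost with library totals alone, without the filter on low counts and without the replicate block.

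Per length of transcript, the D-type mix of hECs shifted towards CCND1. CCND1 made up 60.1% to 81.1% of the summed RPKM (CPM per kilobase of the listed gene length) of the D-type cyclins in high-shear hECs and 34.2% to 54.4% in low-shear hECs. In hCECs the CCND1 share was 66.7% to 72.4% under high shear and 49.3% to 56.8% under low shear. In hBMEC-like cells it was 75.7% to 78.9% under high shear and 71.4% to 73.2% under low shear. The shares did not overlap within any of these 3 models, and in rBMECs, where CCND3 led, the CCND1 share was 18% to 35.8% under high shear and 20.4% to 37.2% under low shear.

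**Figure D3:**
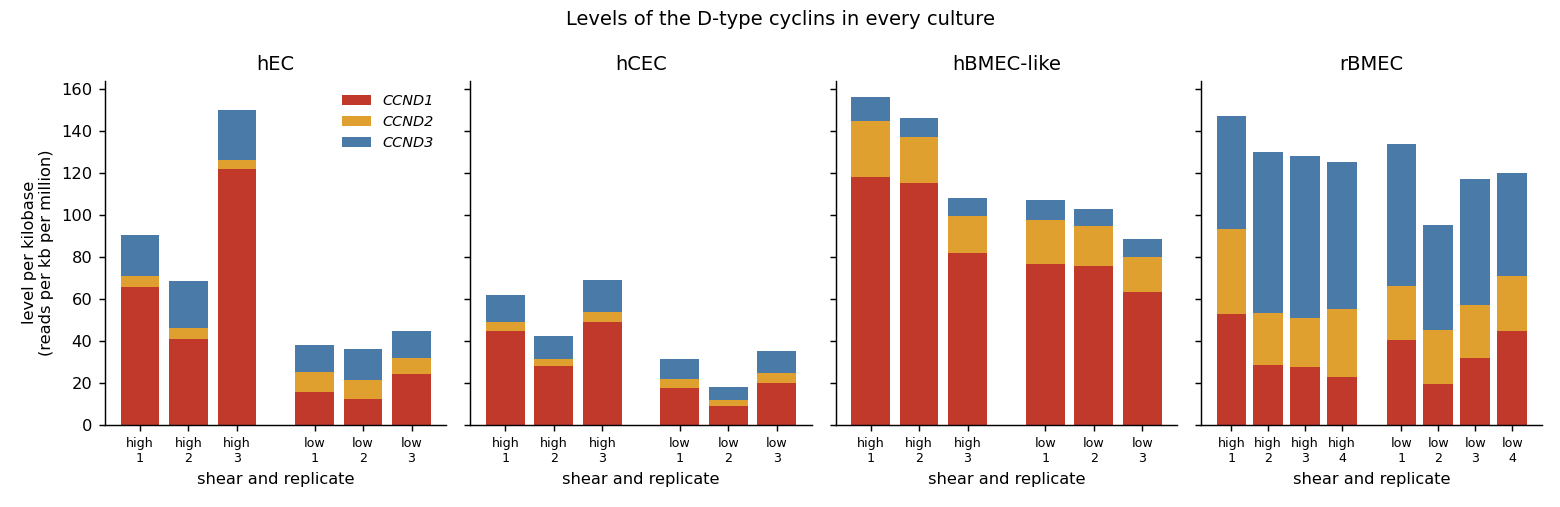
Stacked RPKM of CCND1, CCND2 and CCND3 in each culture, 1 bar a library, high shear left of low shear in each model. The CCND1 part of the bar in hECs was 60.1% to 81.1% under high shear and 34.2% to 54.4% under low shear.

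The kinase partners of the D-type cyclins moved little. CDK4 passed only in hBMEC-like cells among the 4 models, at 131, 132 and 147 CPM under high shear and 143, 153 and 152 CPM under low shear (log2 -0.14, SE 0.044, adjusted p = 0.026), and CDK6 passed there at log2 0.12 (adjusted p = 0.044). Both calls were lost by DESeq2 and without replicate 2, and that of CDK6 also without replicate 1, with library totals alone or without the filter on low counts. In hECs CDK4 was at 0.19 and CDK6 at 0.08 on the log2 scale, and neither passed. Without replicate 2, CDK6 of hCECs was called higher (log2 0.54, adjusted p = 0.0019).

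Of the E-type cyclins and their kinase CDK2, only CDK2 in hECs passed, with 0.31 on the log2 scale (SE 0.076, adjusted p = 0.032), a call lost by DESeq2 and without replicate 1 or replicate 3. CCNE1 and CCNE2 of hECs had log2 fold changes of 0.86 and 0.59 with standard errors of 0.38 and 0.30. In the shallow hCEC library CCNE1 was at 5.70 CPM, against 0.523 to 1.49 CPM in the other hCEC libraries. CDK7, the kinase that activates other CDKs, was counted at 0.77 CPM or less in every human library and was not tested in the human models. How its reads were counted there could not be checked, so this is no measure of its expression. In rBMECs it was at 25.2 to 29.9 CPM.

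The S, G2 and M phase genes CCNA2, CCNB1, CCNB2, CCNF, CDK1 and CDKN3 moved together in hECs. CCNA2 encodes cyclin A, CCNB1 and CCNB2 the B-type cyclins, CDK1 their kinase, CCNF a subunit of a ubiquitin ligase and CDKN3 a phosphatase that acts on CDKs. Genes of this phase are known to be held down in resting cells by a complex that binds a CHR element in their promoters, often with CCAAT boxes that bind NF-Y, so the promoters of the 6 human genes are shown. Each is 250 bases up to the start site, 5′ to 3′, from RefSeq in GRCh38.p14, and capitals mark a CHR (TTTGAA or TTCGAA) or a CCAAT, on either strand. CCNA2 lies at chr4:121823884-121824133 on the minus strand, and the others on the plus strand: CCNB1 at chr5:69166900-69167149, CCNB2 at chr15:59104896-59105145, CCNF at chr16:2429197-2429446, CDK1 at chr10:60778228-60778477 and CDKN3 at chr14:54396757-54397006. A second CDK1 window, at chr10:60778081-60778330, also held a TTTGAA and a CCAAT and is not shown.
CCNA2: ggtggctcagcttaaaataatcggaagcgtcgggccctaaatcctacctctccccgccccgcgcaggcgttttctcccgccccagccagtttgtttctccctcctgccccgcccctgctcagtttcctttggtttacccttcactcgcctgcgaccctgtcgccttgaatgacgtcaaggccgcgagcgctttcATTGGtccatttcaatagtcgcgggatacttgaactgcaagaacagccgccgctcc
CCNB1: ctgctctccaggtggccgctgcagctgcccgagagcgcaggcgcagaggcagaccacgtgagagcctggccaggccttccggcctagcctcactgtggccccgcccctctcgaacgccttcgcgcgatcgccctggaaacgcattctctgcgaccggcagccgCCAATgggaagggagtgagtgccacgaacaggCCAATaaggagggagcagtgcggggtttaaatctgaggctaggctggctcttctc
CCNB2: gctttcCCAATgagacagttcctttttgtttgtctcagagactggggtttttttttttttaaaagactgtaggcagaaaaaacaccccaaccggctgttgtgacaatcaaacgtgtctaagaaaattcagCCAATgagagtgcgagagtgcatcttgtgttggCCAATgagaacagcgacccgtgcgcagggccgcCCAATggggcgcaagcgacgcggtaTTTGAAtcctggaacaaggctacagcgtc
CCNF: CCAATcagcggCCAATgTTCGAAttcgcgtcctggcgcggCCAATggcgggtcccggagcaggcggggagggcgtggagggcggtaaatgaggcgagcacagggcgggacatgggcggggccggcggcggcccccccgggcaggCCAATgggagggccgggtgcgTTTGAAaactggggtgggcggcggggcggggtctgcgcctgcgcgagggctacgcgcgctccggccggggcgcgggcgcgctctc
CDK1: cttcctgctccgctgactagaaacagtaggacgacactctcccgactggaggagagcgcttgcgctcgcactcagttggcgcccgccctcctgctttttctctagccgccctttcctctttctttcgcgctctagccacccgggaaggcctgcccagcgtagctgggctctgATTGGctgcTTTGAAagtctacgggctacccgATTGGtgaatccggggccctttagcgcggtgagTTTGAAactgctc
CDKN3: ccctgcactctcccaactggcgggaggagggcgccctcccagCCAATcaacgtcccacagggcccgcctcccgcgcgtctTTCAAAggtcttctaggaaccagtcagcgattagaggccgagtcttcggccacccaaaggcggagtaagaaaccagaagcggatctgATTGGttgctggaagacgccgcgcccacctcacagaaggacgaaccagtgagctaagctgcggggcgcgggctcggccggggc

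A CCAAT was found in the windows of all 6 genes and a CHR spelled TTTGAA or TTCGAA in 4 of them (CCNB2, CCNF, CDK1 and CDKN3). Other spellings of a CHR were not searched, so CCNA2 and CCNB1 are not shown to lack one. The CCAAT nearest the start began at position -56 in CCNA2, -55 in CCNB1, -54 in CCNB2, -106 in CCNF, -83 in CDKN3 and -46 in the CDK1 window shown. Of 35116 RefSeq promoter windows of this length, 32% held a CCAAT, 14.3% a CHR and 5.05% both, on either strand. Among the 54 windows of the 37 members with an entry, 53.7% held a CCAAT, 13% a CHR and 11.1% both. An E2F motif (TTTCCCGC, TTTCGCGC, TTTGCCGC or TTTGGCGC) stood in 18.5% of the member windows and 2.79% of all windows, and CTTTGAT, a TCF motif of Wnt signaling, in 0 of 54 member windows and 2.26% of all windows. No motif contains another, and TTCGAA reads the same on both strands. The windows do not include CCND1, CCND2, CCNE2, CDK2, CDKN1C, E2F5, E2F8, GADD45A or MYC. A match is only a match of letters.

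In hECs all 6 of these genes rose under high shear. CCNA2 was at 42.1, 33.3 and 37.1 CPM under high shear and 12.5, 10.8 and 13.7 CPM under low shear (log2 1.61, SE 0.10, adjusted p = 0.00017). CCNB1 was at 50.4, 44.0 and 47.7 CPM under high shear and 20.6, 15.9 and 26.0 CPM under low shear (log2 1.21, SE 0.12, adjusted p = 0.00095). CCNB2 was at 21.9, 19.0 and 20.4 CPM under high shear and 8.21, 5.09 and 7.88 CPM under low shear (log2 1.56, SE 0.14, adjusted p = 0.0007). In each, the lowest high-shear culture lay above the highest low-shear culture. CDK1 was at 40.9, 31.1 and 32.6 CPM under high shear and 11.0, 14.0 and 13.6 CPM under low shear (log2 1.43, SE 0.16, adjusted p = 0.0013). CCNF was at 32.4, 34.6 and 35.5 CPM under high shear and 20.6, 18.6 and 16.6 CPM under low shear (log2 0.88, SE 0.11, adjusted p = 0.0019). CDK1 and CCNF did not overlap either, and CDKN3 rose by 1.28 on the log2 scale (SE 0.23, adjusted p = 0.011), a call that was lost without replicate 1.

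In hBMEC-like cells 3 of the 6 genes fell and all 6 had negative fold changes. CCNB2 was at 87.3, 97.6 and 105 CPM under high shear and 109, 110 and 114 CPM under low shear (log2 -0.21, SE 0.047, adjusted p = 0.002). CDK1 was at 87.1, 87.3 and 89.2 CPM under high shear and 99.3, 96.6 and 101 CPM under low shear (log2 -0.18, SE 0.045, adjusted p = 0.0057), and CCNA2 fell by 0.13 on the log2 scale (SE 0.043, adjusted p = 0.035), a call lost by DESeq2 and without replicate 1 or replicate 2. The groups of CCNB2 and CDK1 did not overlap, with folds of 0.862 and 0.881. CCNB1 was at 194, 194 and 210 CPM under high shear and 210, 210 and 222 CPM under low shear, and the log2 value of -0.11 did not pass (adjusted p = 0.052).

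In hCECs none of the 6 passed in edgeR, while all 6 had positive fold changes. Over all 43 members tested in hCECs, 7 had an unadjusted p under 0.05 and DESeq2 called 1. CCNB1 was at 19.2, 20 and 15 CPM under high shear and 15.3, 15.3 and 11.3 CPM under low shear (log2 0.29, SE 0.16, adjusted p = 0.49, and log2 0.37 without replicate 2). Without replicate 2, CCNA2 (log2 1.46, adjusted p = 0.0012) and CDK1 (0.95, adjusted p = 0.037) were called. The shallow library was the highest low-shear hCEC library for CCNA2, CCNB2, CCNF, CDK1 and CDKN3.

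In rBMECs all 6 genes had negative fold changes and none passed. Rat Ccnb1 was at 15.3, 11.4, 25.4 and 7.11 CPM under high shear and 32.7, 11.3, 34.1 and 20.2 CPM under low shear (log2 -0.75, SE 0.25, adjusted p = 0.42). Replicates 1, 3 and 4 had lower values under high shear, and replicate 2 did not. Fold changes were -0.83 for CCNA2, -0.82 for CCNB2, -0.85 for CCNF, -0.86 for CDK1 and -0.82 for CDKN3, on the log2 scale. DESeq2 called CCNF, CDK1 and CDKN3, which were named here after their values were seen.

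The sum of the 6 genes shows the direction by replicate. Under high shear over low shear it had ratios of 2.56, 2.54 and 2.22 in hECs, 1.47, 1.08 and 1.37 in hCECs, 0.886, 0.895 and 0.946 in hBMEC-like cells, and 0.44, 1.09, 0.6 and 0.368 in rBMECs. In hECs the sum was 167 to 193 CPM under high shear and 65.8 to 80.8 CPM under low shear, and in hBMEC-like cells 608 to 670 CPM under high shear and 686 to 708 CPM under low shear. The ranges overlapped in hCECs (38.8 to 53.2 CPM under high shear, 28.4 to 49.1 under low shear) and rBMECs (61.9 to 153 CPM under high shear, 83.0 to 255 under low shear).

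**Figure D4:**
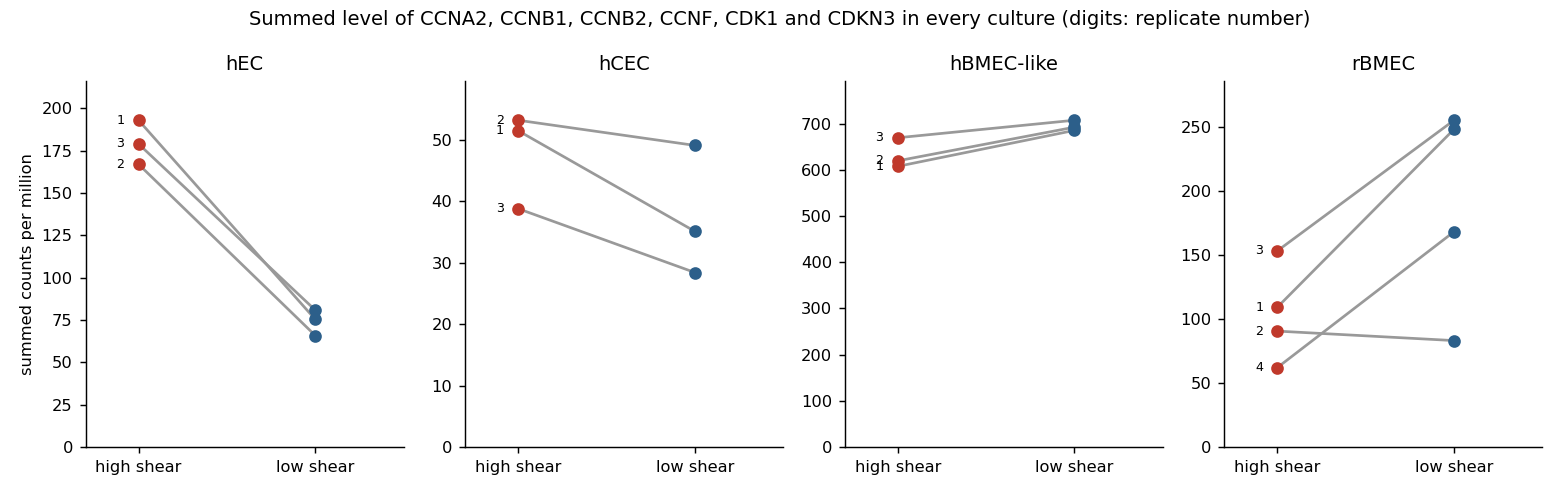
Summed CPM of CCNA2, CCNB1, CCNB2, CCNF, CDK1 and CDKN3 in each culture, with high shear left of low shear and lines joining cultures of a replicate. All 3 hEC pairs were higher under high shear and all 3 hBMEC-like pairs lower.

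Among the Cip/Kip inhibitors, CDKN1A (p21), a p53 target, rose under high shear in hBMEC-like cells. It was at 141, 127 and 94.2 CPM under high shear and 102, 103 and 84.4 CPM under low shear, and in each replicate it was higher under high shear (log2 0.30, SE 0.051, adjusted p = 0.00016). In hECs it was at 269, 249 and 451 CPM under high shear and 379, 305 and 381 CPM under low shear (log2 -0.18, SE 0.13, adjusted p = 0.43). Its direction there differed between replicates, with replicates 1 and 2 lower and replicate 3 higher. In hCECs CDKN1A was at 774, 669 and 1170 CPM under high shear and 918, 394 and 980 CPM under low shear (log2 0.18, adjusted p = 0.77, and log2 0.01 without replicate 2). In rBMECs it was at 521, 313, 318 and 329 CPM under high shear and 238, 293, 194 and 254 CPM under low shear. All 4 rat pairs were higher and the groups did not overlap, but the gene did not pass the test (log2 0.58, SE 0.18, adjusted p = 0.40). CDKN1B (p27) fell in hBMEC-like cells by 0.26 on the log2 scale (adjusted p = 0.032), a call lost when any replicate was omitted and by DESeq2, and CDKN1C did not pass in any model.

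CDKN2B, an INK4 inhibitor of CDK4 and CDK6, went in opposite directions in 2 human models. It was at 1.71, 4.75 and 2.47 CPM under high shear and 6.25, 10.5 and 9.66 CPM under low shear in hECs (log2 -1.64, SE 0.22, adjusted p = 0.0029), a call lost without replicate 1. In hBMEC-like cells it was at 150, 176 and 134 CPM under high shear and 126, 136 and 110 CPM under low shear (log2 0.29, SE 0.043, adjusted p = 1.9e-05). In rBMECs the fold change was 0.59 (adjusted p = 0.56), with replicate 1 at 51.3 CPM under high shear. CDKN2A, CDKN2C and CDKN2D, the other INK4 genes, passed in no model with all replicates. In hCECs without replicate 2, CDKN2B (log2 0.65) and CDKN2D (0.63) were called higher. In the shallow hCEC library CDKN2A was at 8.44 CPM and CDKN2C at 5.54 CPM, against 0.224 to 0.953 CPM of CDKN2C in the others.

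E2F1, an activator of DNA replication genes, also went in opposite directions in hECs and hBMEC-like cells, each the reverse of CDKN2B. In hECs E2F1 ranged over 12.2 to 15.5 CPM under high shear and 4.34 to 10.1 CPM under low shear, and it rose by 1.23 on the log2 scale (SE 0.30, adjusted p = 0.031). In hBMEC-like cells it was at 38.5, 39.8 and 37.6 CPM under high shear and 42.9, 48.2 and 43.9 CPM under low shear (log2 -0.23, SE 0.060, adjusted p = 0.0086), a call lost by DESeq2 and without replicate 2. E2F2, a closely related activator, rose in hECs by 2.02 on the log2 scale (SE 0.50, adjusted p = 0.036). Both hEC calls were lost without replicate 1 or replicate 3, and the highest low-shear level of both genes was that of replicate 2. E2F2 was at 12.2 CPM in the shallow hCEC library and at 0 to 0.446 CPM in the others, so that it was not tested in hCECs. E2F3, E2F4, E2F5, E2F7, E2F8 and TFDP1, the partner of E2Fs, passed in no model, and E2F8 of hECs stood at log2 0.75 (adjusted p = 0.057). Of the pocket proteins, RBL1 fell in hBMEC-like cells, at 20.1, 20.2 and 23.2 CPM under high shear and 23.9, 30.5 and 25.5 CPM under low shear (log2 -0.34, SE 0.084, adjusted p = 0.0064, lost without replicate 2), and RB1 and RBL2 passed in no model.

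MYC, a factor that drives growth and cell cycle entry, fell in hECs. It was at 11.0, 16.8 and 20.2 CPM under high shear and 25.5, 35.2 and 31.2 CPM under low shear (log2 -0.96, SE 0.13, adjusted p = 0.0029), with no overlap. In hCECs it was at 14.4, 22.6 and 14.8 CPM under high shear and 18.8, 19.2 and 23.0 CPM under low shear (log2 -0.34, adjusted p = 0.42), and without replicate 2 it was called lower (-0.51). In hBMEC-like cells it was at 5.59, 6.24 and 5.90 CPM under high shear and 4.68, 4.6 and 4.19 CPM under low shear (log2 0.39, SE 0.15, adjusted p = 0.095), and every high-shear culture was above the low-shear ones. In rBMECs it was at 127, 53.8, 40.2 and 68.0 CPM under high shear and 65.4, 56.7, 65.3 and 128 CPM under low shear (log2 -0.19, adjusted p = 0.94). MYCN, a relative that is prominent in stem cells, fell in hBMEC-like cells, at 131, 156 and 166 CPM under high shear and 157, 175 and 169 CPM under low shear (log2 -0.16, SE 0.045, adjusted p = 0.013), a call lost without replicate 1 or replicate 2.

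Of the arrest and damage genes, GADD45A fell in hECs by 0.63 on the log2 scale (SE 0.10, adjusted p = 0.0072) and SESN1, a p53 target of the stress response, rose by 0.34 (adjusted p = 0.032). GADD45G of rBMECs stood at 0.98 on the log2 scale (adjusted p = 0.41), called only by DESeq2. MDM2, which limits p53, and BTG1 and BTG2, which restrain growth, passed in no model with all replicates. CCNG2, a cyclin linked to arrest, rose in hECs by 0.44 (adjusted p = 0.0074) and CDK14 fell by 0.41 on the log2 scale (adjusted p = 0.039). The calls of CCNG2, CDK14, GADD45A and SESN1 in hECs were lost without replicate 1, those of CDK14 and SESN1 also without replicate 3, and that of SESN1 by DESeq2.

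Wider lists of cell cycle genes, none of which holds a member, had these counts. In hECs, 43 of 48 G2/M genes and 15 of 42 S phase genes rose and none fell (by edgeR; 0 and 0 at an unadjusted p under 0.05 and by DESeq2), with median log2 fold changes of 1.28 and 0.82 beside 0.0 over all genes. TOP2A, the topoisomerase of mitotic chromosomes, averaged 121 CPM under high shear and 35.0 CPM under low shear in hECs (log2 1.80, adjusted p = 0.00028). In hBMEC-like cells 19 of 49 G2/M genes and 20 of 42 S phase genes fell and none rose (0 and 0 at an unadjusted p under 0.05 and by DESeq2), with medians of -0.14 and -0.13. DESeq2 called 12 and 8 of these genes lower. Omitting a replicate moved these counts. In hECs 28 of 49 G2/M and 1 of 42 S phase genes were higher without replicate 1, and 33 S phase genes without replicate 2. In hBMEC-like cells 10 G2/M and 7 S phase genes were lower without replicate 2, and 9 S phase genes without replicate 1. HMGB2, a chromatin protein of dividing cells, averaged 205 CPM under high shear and 283 CPM under low shear in hBMEC-like cells (log2 -0.48, adjusted p = 1.8e-08). In hCECs 2 of 49 G2/M genes rose and 1 fell (median 0.26), while without replicate 2 there were 17 of 46 that rose and 1 that fell (median 0.46), and no S phase gene was called by edgeR (1 at an unadjusted p under 0.05 and 0 by DESeq2, and 3 higher and 1 lower by edgeR without replicate 2). In rBMECs no gene of either list was called by edgeR, although 26 of 48 G2/M genes and 11 of 43 S phase genes were lower at an unadjusted p under 0.05 and DESeq2 called 2 and 0 of them. Medians in rBMECs were -0.62 and -0.38, and all 43 S phase genes had negative fold changes. Of the p53 targets, 4 of 22 rose and 1 fell in hECs (7.87% and 8.23% of all genes), and 6 of 22 rose and 1 fell in hBMEC-like cells (8.2% and 6.77% of all genes). In rBMECs and hCECs no p53 target was called by edgeR (0 and 7 at an unadjusted p under 0.05, 0 and 1 by DESeq2). Without replicate 2, 3 p53 targets were higher and 2 lower in hCECs, and in hECs 1 was higher without replicate 1 and 2 without replicate 3. PLK2, a kinase induced by p53, averaged 120 CPM under high shear and 86.1 CPM under low shear in hBMEC-like cells (log2 0.46, adjusted p = 1.3e-07). Of 36 G1/S network genes 9 rose in hECs, FOXM1 among them, a factor of mitotic genes, at 53 CPM under high shear and 14.8 CPM under low shear (log2 1.83, adjusted p = 0.00031), while 2 of 36 were called higher and 4 lower in hBMEC-like cells (8.2% and 6.77% of all genes). Without replicate 1 of hECs, 2 of the 36 were higher.

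The responses of the models were compared by the interaction of shear and model. Against hECs, the hBMEC-like response differed for 21 of 45 members, 6 with a more positive response (background 7.96% of all genes) and 15 with a more negative one (5.63%). When any hBMEC-like replicate was omitted 13 or 14 of the 21 calls were kept, with CDK14, E2F1, E2F2, E2F8, GADD45B and RBL1 lost each time. The difference was -1.73 for CCNA2 (SE 0.10, adjusted p = 1.7e-05), -1.75 for CCNB2, -1.61 for CDK1 and -1.51 for CCND1 on the log2 scale. It was positive for CDKN2B (1.89, SE 0.18, adjusted p = 0.00015), CCND2 (0.95) and MYC (1.35). The rBMEC response differed from that of hECs for 10 of 46 members, 2 more positive (1.85% of all genes) and 8 more negative (2.16%). CDK1 differed by -2.29 (SE 0.37, adjusted p = 0.014), CCNA2 by -2.44 and CCND1 by -2.11, and CDKN2B by 2.23. Without hEC replicate 1, or without hEC replicate 3, no member was called between rBMECs and hECs. Of all genes, 71 and 93 were then called more positive and 48 and 62 more negative, of 13255 and 13159 tested. Without hEC replicate 2 only 3 of the 10 were called, beside 92 more positive and 134 more negative of 13204 genes. Against hECs, no member's hCEC response was called different by edgeR (background 0.492% more positive and 0.267% more negative). At an unadjusted p under 0.05 there were 11 of 45 members, beside 1695 of 16477 genes. DESeq2 called 6 members, beside 422 more positive and 287 more negative of 14133 genes. Without hCEC replicate 2, 2 members were called by edgeR, CCND2 (0.73) and CDKN2B (2.28), beside 282 more positive and 160 more negative of 16573 genes. These 3 comparisons share the hEC cultures. The human rise of CCND1 was known when the genes were chosen, so its differences are given as a description.

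**Figure D5:**
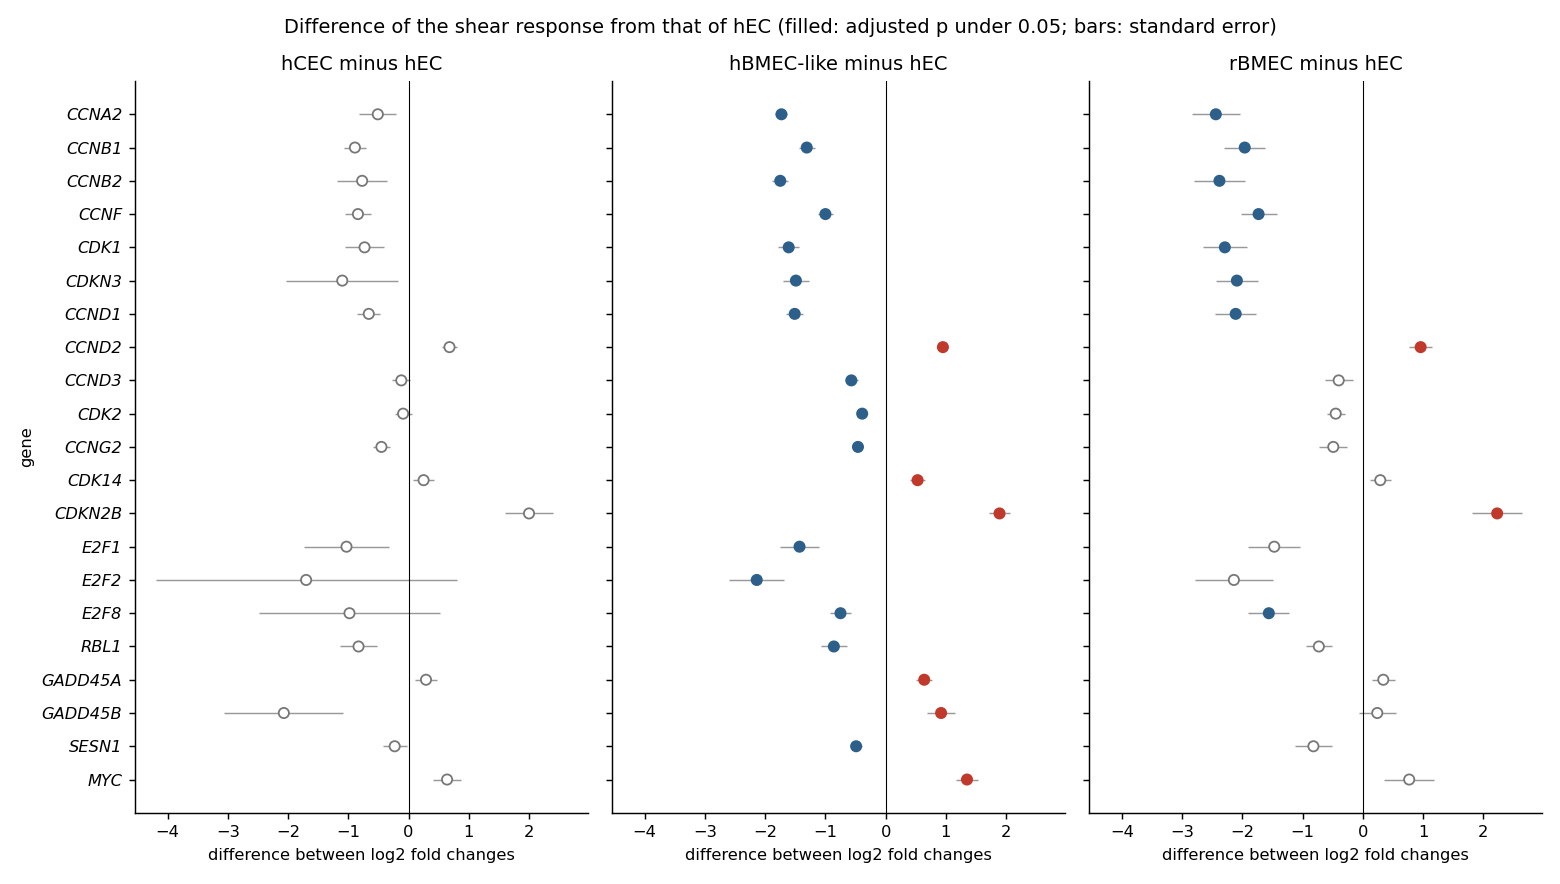
Difference in the shear response from that of hECs for the 21 members called between hBMEC-like cells and hECs, on the log2 scale, with 1 standard error and filled where called, for hCECs, hBMEC-like cells and rBMECs. CCNA2 was at -1.73 in hBMEC-like cells and -2.44 in rBMECs.

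Levels between the human models were compared at each shear, where the model and its medium cannot be told apart. In hBMEC-like cells at low shear 31 of 45 members were higher and 11 lower than in hECs, where 35.9% and 33.9% of all genes were called. At high shear 27 were higher and 11 lower, beside 36.4% and 34.3%. CCNA2 was higher by 3.63 at low shear (SE 0.098, adjusted p = 1.2e-07) and by 1.90 at high shear on the log2 scale. CCND1 was higher by 2.02 at low shear (adjusted p = 0.00015) and by 0.44 at high shear (adjusted p = 0.29). MYCN was higher by 4.47 at low shear, and the INK4 gene CDKN2B by 3.81. CDKN1A was lower by 1.89 and MYC lower by 2.78 at low shear.

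In hCECs at high shear 5 of 45 members were higher and 26 lower than in hECs, beside 15.2% and 15.3% of all genes. CCNA2 had a log2 difference of -2.81 (SE 0.13, adjusted p = 2.9e-05), CCNB2 of -3.14, CDK1 of -2.69 and CCNF of -1.14. CDKN1A was higher by 1.42 (SE 0.27, adjusted p = 0.0066) and CDKN2B by 1.77. No source used here says that equal replicate numbers of hCECs and hECs share a differentiation, so a block on them rests on the numbers alone. With the replicate number as a block CCND1 was called lower (-0.82, adjusted p = 0.0068, against -0.92 and adjusted p = 0.099 without the block) and CDKN2A higher (1.91, adjusted p = 0.039). At low shear 4 of 45 members were lower in hCECs, CCNA2 (-2.19), CCND2 (-1.02), CDK14 (-1.16) and RBL2 (-0.64), beside 1.8% of all genes. None was higher by edgeR, beside 0.852% of all genes, with 2 at an unadjusted p under 0.05 and 2 by DESeq2. With the block at low shear CDK1 was also called (adjusted p = 0.035, against 0.085 without it). Without the shallow hCEC library, 3 members were higher and 18 lower, beside 6.36% and 8.86% of all genes. Each other omission of a library gave 0 members, where 9 to 37 of all genes were higher and 40 to 106 lower, of 16204 to 16605 tested.

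The calls depended most on the replicate block and on single replicates. Without the block, none of the 13 hBMEC-like calls and none of the 2 hCEC calls was made, and of all genes 0.0425% were called higher and 0% lower in hBMEC-like cells and 1.16% and 0.581% in hCECs. Without replicate 1 of hECs 7 members were called higher and 3 lower. Of these, 9 were among the 18 calls with all replicates and the other was CDKN2A. Of the 15910 genes then tested, 427 were called higher and fewer lower, against 1219 and 1275 of 15488 with all replicates. Calls were thus lost over all genes and not only among the members. Omitting replicate 2 of hCECs gave 7 members higher (7.83% of all genes) and 5 lower (6.66%). The lower ones were CDKN1B, BTG2, GADD45A, MDM2 and MYC.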

How the data were processed

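The deposited values are whole-number counts of reads per gene, without normalization, which the authors made by aligning reads with STAR (hg38 for human cells, rn7 for rat cells in the methods, while the labels name hg38 for all) and counting with featureCounts. The annotation and the strand setting are not given in the sources used here. Lines with empty cells were left out, 6 in the human tables and 5 in the rat table, and none was a member. No library was a copy of another. The 46 members and all lists were chosen with earlier results of these data known.

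In each model, high and low shear were compared with edgeR's quasi-likelihood test (version 4.0.16, under R 4.3.3), using TMM scaling, filterByExpr (minimum count 10, total 15), Benjamini-Hochberg adjustment over all genes kept and a call at an adjusted p under 0.05. The replicate number was a block, as the study paired cultures. Correlations of the deviations of same-numbered cultures were 0.199 to 0.412 in hECs, 0.13 to 0.354 in hBMEC-like cells, 0.0533 to 0.198 in hCECs and 0.099 to 0.396 in rBMECs, where replicate 4 (0.333) and, in hCECs, replicate 2 (0.0671) correlated better with another number than with their own. Between hCECs and hECs they were 0.127 to 0.313. There, replicate 3 at low shear correlated better with another number (0.166) than with its own (0.127). Blocked values are given where a call changes. Models were compared within a shear without a block, and shear responses by an interaction term. rBMECs and hECs were matched by symbol over 16513 genes. A standard error was taken as the size of the log2 value over the root of its F statistic. DESeq2 1.42.0, other size factors, no filter, no block and the omission of each replicate were tried. RPKM, used to compare genes, were computed from the deposited lengths. The scripts were tested on simulated data. The depth of 9790999 to 47006272 counts per library sets the precision for low genes. Library values are given for called members, at most the 10 with the smallest p per comparison, and for CCND1, CDKN1A, MYC and CCNB1. At most 4 genes of a list, those with the smallest p in any model, are named.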

Additional observations from a re-analysis of the deposited data

Results flagged for a closer look

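Between hBMEC-like cells and hECs the shear response differed for 21 members by the interaction test of edgeR. The log2 differences were negative for CCNA2 (-1.73), CCNB2 (-1.75), CDK1 (-1.61), CCND1 (-1.51), CDKN3 (-1.49), E2F1 (-1.43), CCNB1 (-1.31), CCNF (-1.0), RBL1 (-0.86), E2F8 (-0.75), CCND3 (-0.57), SESN1 (-0.49), CCNG2 (-0.46), CDK2 (-0.39) and E2F2 (-2.14). They were positive for CDKN2B (1.89), MYC (1.35), CCND2 (0.95), GADD45B (0.92), GADD45A (0.64) and CDK14 (0.53). Adjusted p-values ran from 1.7e-05 for CCNA2 to 0.028 for GADD45B. CDK14, E2F1, E2F2, E2F8, GADD45B and RBL1 were lost whenever an hBMEC-like replicate was omitted, and 14 of the 21 were called without the replicate block.

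Between rBMECs and hECs it differed for 10 members, with log2 differences of -2.44 for CCNA2, -2.38 for CCNB2, -2.29 for CDK1, -2.11 for CCND1, -2.09 for CDKN3, -1.96 for CCNB1, -1.73 for CCNF, -1.56 for E2F8, 2.23 for CDKN2B and 0.96 for CCND2, and adjusted p-values from 0.014 to 0.043 by edgeR. None was called without hEC replicate 1 or replicate 3, where 71 and 93 of all genes were more positive and 48 and 62 more negative. Both comparisons share the hEC cultures. The CCND1 values in both are a description, since its human rise was known when the genes were chosen.

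A single rBMEC library lay far from the other 3 of its group in 8 of the 88 groups of 4 that were examined. The cut-off passes about 1 in 20 groups by chance if groups are independent and values normally distributed. These groups come from the same libraries, so their number cannot be set against chance. Replicate 1 under high shear was the highest for CCNG1 (207 CPM, next 93.4), CDKN1A (521 CPM, next 329), CDKN2B (51.3 CPM, next 19.6) and MDM2 (195 CPM, next 95.1). Under low shear, replicate 4 was the highest for MDM2 (106 CPM) and MYC (128 CPM), replicate 2 the lowest for TFDP1 (75.7 CPM) and replicate 1 the highest for MYCN (0.597 CPM).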

How the results depend on the processing

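Over all members, comparisons and alternatives, 180 calls were lost and 105 gained, 23 of the gains between hCECs and hECs at low shear, 11 in hCECs and 4 in rBMECs. Of the called members, and CCND1, CDKN1A, MYC and CCNB1 where not called, 2 values changed direction, both in rBMECs and neither called: CCND1 ranged from -0.28 to 0.25 and MYC from -0.56 to 0.07 when a replicate was omitted, with the positive values without replicate 4. For all these changes the cause was not tested. Without the replicate block, 3 members were lower in hECs, 0 were higher in hCECs, 0 higher and 0 lower in hBMEC-like cells, and 1 and 3 differed upwards and downwards between rBMECs and hECs. With library totals alone 1 member was higher and 1 lower in hCECs, and without a filter 1 was higher in hCECs and 1 had a more positive response in hCECs than in hECs. DESeq2 called 1 member higher in hCECs, 1 higher and 3 lower in rBMECs, 4 lower in hBMEC-like cells, 3 more positive and 3 more negative responses in hCECs than in hECs, and 2 members higher in hCECs than in hECs at low shear. When a replicate was omitted, members higher and lower ranged over 7 to 16 and 3 to 5 in hECs, 1 to 7 and 0 to 5 in hCECs, and 3 to 6 and 3 to 8 in hBMEC-like cells. More positive responses than in hECs ranged over 0 to 2 in hCECs (5 to 282 of all genes) and 3 to 7 in hBMEC-like cells (850 to 1538). In rBMECs 0 to 2 were more positive (71 to 429 of all genes) and 0 to 8 more negative (48 to 350). Against hECs at low shear, hCECs had 0 to 3 members higher and 0 to 18 lower, beside 9 to 985 and 40 to 1373 of all genes. At high shear 3 to 5 were higher, beside 1494 to 2128 of all genes. An omitted library leaves a group with 2 cultures. Equal numbers did not pair hBMEC-like cells with hECs (correlations of -0.0601 to 0.0182), and the block there gave 41 calls in place of 42 at low shear and 39 in place of 38 at high shear. The shallow hCEC library limits what low-count members such as E2F2 and CDK18 can show.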
